A study of Mus musculus with 6 samples.

Results

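The amino acid transporter families were described in BV2 cells, an immortalised mouse microglial line, as the 45 genes of the deposited count table whose symbols begin with the SLC1, SLC6, SLC7, SLC36, SLC38 or SLC43 stem, together with Slc3a1 and Slc3a2, out of 17872 genes in all. Membership was set by symbol alone and used no measured value. The families and the lists of related genes below were, however, chosen with earlier results of these data known. The study asked what CRISPR-Cas9 knockout of Tfam, the mitochondrial DNA packaging and transcription factor, does to the microglial transcriptome. It held 2 groups of 3 RNA-seq libraries, wild-type BV2 controls and BV2 cells labelled Tfam knockout, with no other treatment given for either group. The protocol attached to all samples states puromycin at 2 µg/mL after editing. The labels leave unstated if the edited line was 1 clone or a pool, what the controls carried, and if replicates were separate cultures, so the p-values measure the spread between these libraries, which may be technical.

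Transporters of these families move amino acids across the plasma membrane and the lysosomal membrane. Sodium-coupled carriers (SLC1, SLC6, SLC38) concentrate their substrates. Proton-coupled carriers, found in SLC36, export small amino acids from lysosomes or take them up. Exchangers (many SLC7 members) swap an internal for an external amino acid. Several SLC7 light chains reach the membrane only when bound to the heavy chain Slc3a2, known as CD98hc or 4F2hc. In macrophages and microglia they are known for cystine uptake for glutathione, arginine uptake for nitric oxide and glutamate exchange. ATF4, the transcription factor of the amino acid starvation response, is known to bind elements named CARE near many transporter genes.

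Libraries held between 13850691 and 28418133 counts, and the 45 genes took between 0.293% and 0.384% of them. Tfam mRNA itself was at 38.2 ± 1.01 CPM in controls and 42.3 ± 1.15 CPM in the other group (mean ± SD, n = 3 each; adjusted p = 0.193, edgeR), so it does not check the labels and every direction below is between controls and libraries labelled knockout. Of 10 microglia and macrophage markers 9 were in the table, all above 1 CPM on average, and their summed level ran from 3071 to 3591 CPM in controls and from 2414 to 2646 CPM in the labelled knockout. The 1 astrocyte and 2 T cell markers in the table were each below 1 CPM, the neuron and fibroblast markers summed to at most 2.55 CPM, and oligodendrocyte markers summed to between 24.4 and 25.5 CPM in controls and between 11.9 and 14.2 CPM in the labelled knockout. The part of these shifts in the results below was not tested. CPM are counts per 1e+06 counts after TMM scaling, signed numbers in brackets are log2 fold changes, and a gene rose or fell where its adjusted p was below 0.05 in edgeR's quasi-likelihood test over all 13403 tested genes.

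Before the values, the start regions of a pair of members that hold CARE letters, searched as TGATGNAA on both strands, are shown. Both genes rose, and Slc7a7, which holds the letters too and was not called, is not shown. The sequences are from RefSeq (GRCm38.p6, another build than the authors'), 5′ to 3′ on the gene's strand, with the CARE letters in capitals, and +1 is the annotated first transcribed base.
Slc7a11: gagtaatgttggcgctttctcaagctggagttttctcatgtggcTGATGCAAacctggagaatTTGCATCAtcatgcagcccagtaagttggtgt
Slc1a4: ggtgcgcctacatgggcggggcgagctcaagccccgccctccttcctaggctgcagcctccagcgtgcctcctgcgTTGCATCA
The Slc7a11 stretch is chr3:50443629-50443723, minus strand, bases -110 to -16, and holds matches at -66 to -59 and, in the reverse orientation, at -47 to -40. The Slc1a4 stretch is chr11:20332710-20332793, minus strand, bases -80 to 4, with a reverse match at -4 to 4. RefSeq windows of 300 bases (250 before the start and 50 after) were matched for 36 of the 45 members, and 4 of their 55 windows held the letters, against 3.97% of all 32851 windows. The 9 members without a window were not searched: Slc1a5, Slc38a1, Slc38a3, Slc43a3, Slc6a6, Slc6a8, Slc7a2, Slc7a3 and Slc7a13. At least 2 separate matches were found in 23 windows, or 0.07% of all, among them the Slc7a11 window and a window of Slc7a7. The other member with matches was Slc7a7, an arginine exchanger. Its level was 1.67 ± 0.172 CPM in controls and 1.22 ± 0.402 CPM in the labelled knockout (-0.48 ± 0.36 SE, adjusted p = 0.299, edgeR). The letters thus stood at called genes and at a gene that was not called. With at most 48 Slc7a7 counts in a library, the missed call does not show an unchanged level. The antioxidant response letters TGACNNNGC were in 7 of the 55 windows (12.4% of all windows), among them Slc38a2 and Slc36a1. The hypoxia element core ACGTG was in 16 (19.6% of all windows). It stood at Slc3a2 and Slc38a7, which rose, at Slc38a10 and Slc7a15, which fell, and at members not called, such as Slc7a6. The motifs can overlap one another. A match is a description of letters and not a binding site.

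Of the 45 members, 33 had enough reads to be tested. The transporters with the most reads were spread over most families, and changes went both ways: 9 of the 33 rose and 8 fell in the labelled knockout, while 16 did not pass. Over all tested genes 21.3% rose and 22.9% fell, 44.2% together, so the share called among the members (51.5%) was near the background. The members' median log2 fold change was -0.03, and that over all genes was 0.0012. A change of at least 1.5-fold was called for 4 that rose, Slc7a11, Slc43a3, Slc7a8 and Slc38a7, and 2 that fell, Slc7a15 and Slc7a3, against 8.21% and 11.3% of all genes. The groups did not overlap for 21 of the 33, against 52.9% of all genes. The count of members that fell depended on single libraries and on scaling: it was 5 without control 1, 4 without control 3, and 4, with 12 higher, with scaling to library totals, under which 61.8% of all calls were higher, against 48.2% with TMM. In bulk RNA a different level per cell and a different share of expressing cells cannot be told apart.

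**Figure D1:**
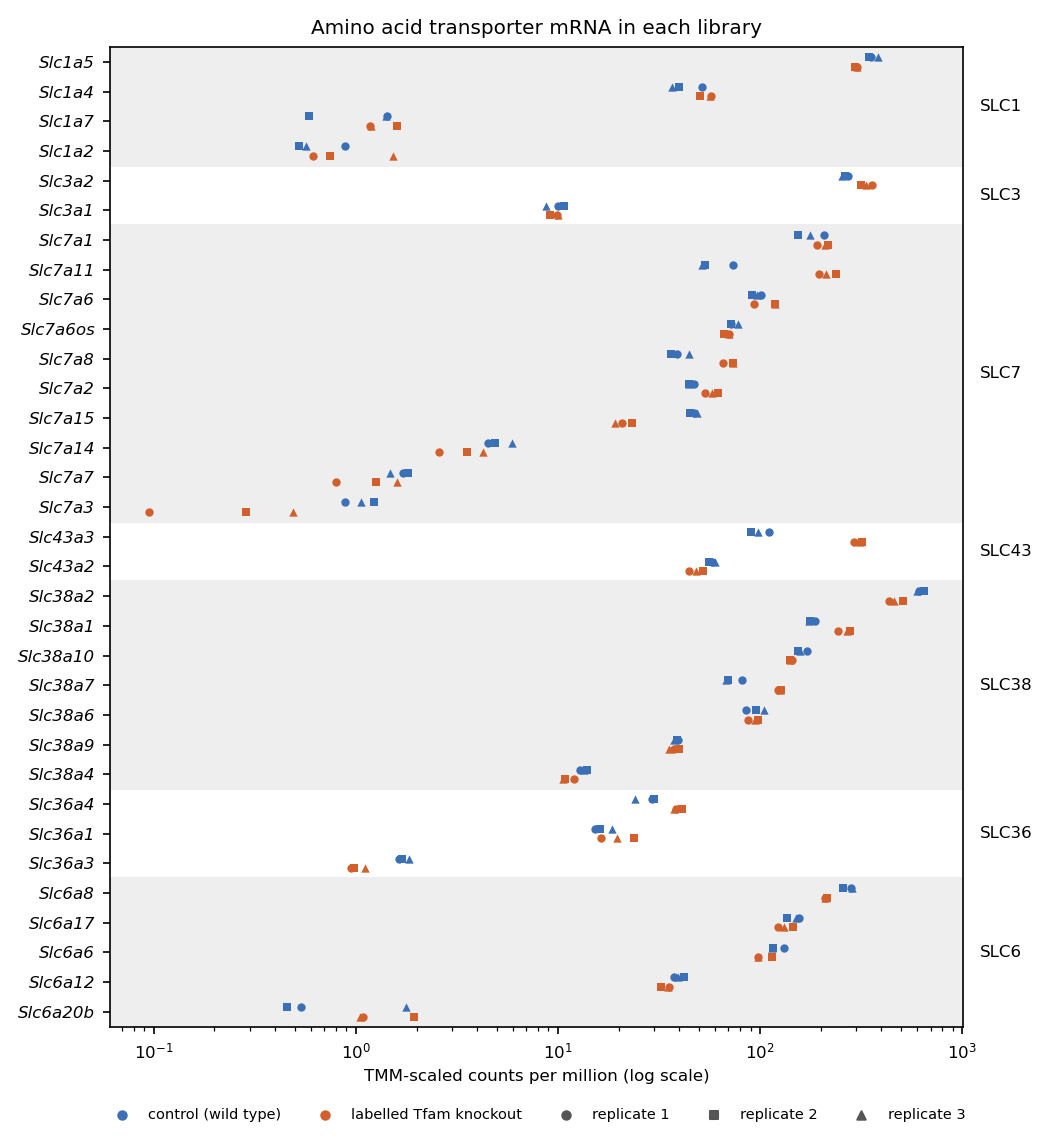
CPM (TMM-scaled, log axis) of the 33 tested members in each of the 6 libraries, ordered by family, with controls in blue, libraries labelled knockout in orange and replicates by symbol. Slc7a11 and Slc43a3 stand clear of the controls on the high side, Slc7a15 and Slc7a3 on the low side, and most other members differ little between groups.

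Among the exchangers that pair with a heavy chain, Slc7a11 changed the most of all members that rose. Slc7a11 is the light chain of system xc-, which takes up cystine in exchange for glutamate. It was at 73.4, 53.4 and 51.7 CPM in controls 1 to 3 and at 197, 238 and 212 CPM in labelled knockout 1 to 3. Every labelled knockout library lay far above the highest control, and the fitted rise was 3.60-fold (log2 fold change 1.85 ± 0.113 SE, adjusted p = 1.06e-09, edgeR). Annotated Slc7a11 transcripts share stretches with 9 other genes in the table, the longest being 375 bases with Gm3756 (96.0% identity), and 373 bases match the opposite strand of the tubulin genes Tuba1b (96.2% identity) and Tuba1c (95.4%). Tuba1b was at 508 ± 10.8 CPM in controls and 492 ± 56.2 CPM in the labelled knockout, and Tuba1c fell (-0.47). The part of shared stretches in the Slc7a11 value was not tested.

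The heavy chain Slc3a2 rose less than that light chain. It was at 273, 263 and 255 CPM in controls and at 357, 318 and 334 CPM in the labelled knockout, without overlap (1.28-fold, adjusted p = 0.00105, edgeR). Annotated Slc3a2 transcripts share stretches of up to 177 bases with 83 other genes in the table at 95% identity or more. The other heavy chain, Slc3a1, known from cystine and dibasic amino acid uptake in kidney, was at 9.82 ± 1.04 CPM and 9.66 ± 0.458 CPM (adjusted p = 0.9, edgeR); 26.5% of its exon bases lie opposite Prepl, which rose, and the library kit does not mark strand.

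Light chains other than Slc7a11 did not all follow. Slc7a8, the large neutral amino acid transporter LAT2, was at 39.1, 36.2 and 44.4 CPM in controls and at 66.1, 73.9 and 74.1 CPM in the labelled knockout. These groups did not overlap, and the fitted rise was 1.79-fold (adjusted p = 1.43e-06, edgeR). Slc7a6, which exchanges arginine for neutral amino acids with sodium, was at 96.3 ± 4.89 and 110 ± 14.6 CPM and did not pass (0.19, adjusted p = 0.0922, edgeR); without labelled knockout 1, the lowest of that group, it did (0.30, adjusted p = 0.00461, edgeR). Per 1000 bases of the longest annotated transcript, Slc7a11 was at 0.0821, 0.0619 and 0.0617 of the Slc3a2 level in controls and at 0.168, 0.228 and 0.194 in the labelled knockout. Its share of the summed level of Slc7a6, Slc7a7, Slc7a8 and Slc7a11 went from 0.151 ± 0.0232 to 0.33 ± 0.0145 (SD, n = 3 each, a ratio). SLC7 and SLC43 members outside the count table are not analysed here, and the measured SLC7 exchanger Slc7a15 is not in these sums. Per 1000 bases Slc7a15 was at 24.6 ± 0.942 in controls and at 11.1 ± 1.07 in the labelled knockout. The sums thus do not hold every light chain, and the Slc7a11 share holds for the named genes only. The ratios between genes were chosen after the counts were seen and carry no test.

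**Figure D2:**
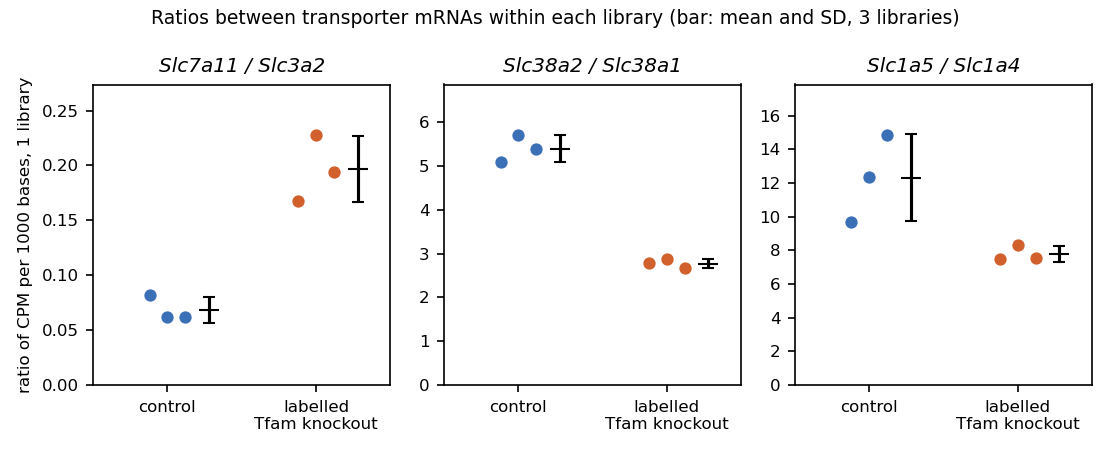
Ratios between pairs of transporter mRNAs within each library, from CPM per 1000 bases, with points for the 3 libraries of a group and bars for mean and SD. Slc7a11 relative to Slc3a2 is higher in every labelled knockout library, and Slc38a2 relative to Slc38a1 and Slc1a5 relative to Slc1a4 are lower in every one.

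Cationic amino acid transporters differed among themselves. Slc7a2, the CAT2 carrier that supplies arginine in activated macrophages, was at 47.1, 44.7 and 44.7 CPM in controls and at 53.6, 62.4 and 58.3 CPM in the labelled knockout, without overlap (0.35 ± 0.0867 SE, adjusted p = 0.00328, edgeR). Slc7a1, the widely expressed CAT1, overlapped between groups, from 154 to 207 CPM in controls and from 193 to 218 CPM in the labelled knockout (0.20, adjusted p = 0.0863, edgeR). It passed as higher without control 1 (0.34, adjusted p = 0.00461, edgeR), its highest control, and without labelled knockout 1 (0.26, adjusted p = 0.0484, edgeR). Per 1000 bases Slc7a1 stood above Slc7a2 in every library, at 25 ± 3.69 against 5.75 ± 0.177 in controls. Slc7a3, the CAT3 carrier, was near the lower limit of detection, with 25, 19 and 15 counts in controls and only 2, 5 and 7 counts in the labelled knockout, and fell by 1.93 ± 0.535 on the log2 scale (adjusted p = 0.00735, edgeR).

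The remaining SLC7 members with reads were lower or did not pass. Slc7a15, described as an exchanger that prefers aromatic amino acids and is not functional in humans, was at 47.1, 45.1 and 48.7 CPM in controls and at 20.9, 23.3 and 19.3 CPM in the labelled knockout. No library of one group came near the other, and the level was 2.22-fold lower (adjusted p = 8.07e-08, edgeR). Slc7a14, a lysosomal relative, was at 5.12 ± 0.741 and 3.47 ± 0.833 CPM (-0.56, adjusted p = 0.0589, edgeR) and passed as lower without labelled knockout 3 (-0.73, adjusted p = 0.0348, edgeR). Slc7a6os, which the symbol rule takes in, is the gene next to Slc7a6 and no transporter (74 ± 3.22 and 69.1 ± 2.28 CPM, adjusted p = 0.324, edgeR). Of the family's 10 tested members 3 rose and 2 fell, and 5 rose without labelled knockout 1.

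In SLC43, the members moved in opposite directions. Slc43a3, which carries purine nucleobases and not amino acids, was at 111, 90.6 and 98.3 CPM in controls and at 292, 320 and 314 CPM in the labelled knockout. The gap between groups was wide against the spread within them, and the rise was 3.08-fold (1.62 ± 0.0838 SE, adjusted p = 1.09e-10, edgeR). Slc43a2, the large neutral amino acid transporter LAT4, was at 58.1 ± 2.01 and 48.6 ± 3.95 CPM and fell by 0.26 on the log2 scale (adjusted p = 0.0223, edgeR), a call lost without control 1 or 3 or labelled knockout 1 or 3 (largest adjusted p = 0.0961, edgeR). Of its exon bases 9.18% lie opposite Gm45606, which fell as well (-1.24).

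The sodium-coupled glutamine carriers of SLC38 split by member, although their genes are neighbours. Slc38a1, Slc38a2 and Slc38a4, the system A carriers SNAT1, SNAT2 and SNAT4, are consecutive protein-coding genes on chromosome 15 in the RefSeq table. Slc38a1 was at 188, 177 and 174 CPM in controls and at 244, 279 and 271 CPM in the labelled knockout (1.47-fold higher, adjusted p = 1.43e-05, edgeR). Slc38a2, the carrier induced by amino acid shortage, was at 614, 650 and 601 CPM in controls and at 435, 514 and 463 CPM in the labelled knockout (1.32-fold lower, adjusted p = 0.000752, edgeR). The groups did not overlap for either gene, and per 1000 bases the Slc38a2 level went from 5.39 ± 0.314 to 2.77 ± 0.101 times the Slc38a1 level (SD, n = 3 each). Slc38a4 was at 13.5 ± 0.505 and 11.2 ± 0.742 CPM (-0.26, adjusted p = 0.109, edgeR).

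Of the SLC38 members known or thought to act inside the cell, Slc38a7, a lysosomal exporter of glutamine and asparagine, rose from 81.9, 69.4 and 68.4 CPM to 124, 128 and 126 CPM (1.71-fold, adjusted p = 7.09e-07, edgeR). Slc38a9, the lysosomal arginine sensor for mTORC1, was at 39.3, 39 and 37.7 CPM and at 37.6, 39.7 and 35.4 CPM, with overlap between groups (log2 fold change -0.04 ± 0.09 SE, adjusted p = 0.738, edgeR). Slc38a10 was at 161 ± 9.04 and 142 ± 1.86 CPM (-0.18, adjusted p = 0.0422, edgeR), a call lost without any single control or without labelled knockout 2 or 3 (largest adjusted p = 0.214, edgeR), which leaves Slc38a2 as the only SLC38 gene that fell there. Slc38a6 did not pass (95.3 ± 9.79 and 93.2 ± 5.32 CPM, adjusted p = 0.799, edgeR), and its annotated transcripts share repeats with 61 other genes in the table, up to 3240 bases with Noct.

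SLC1 held the most abundant neutral amino acid exchanger and almost no glutamate carrier. Slc1a5, the glutamine exchanger ASCT2, was at 356, 347 and 384 CPM in controls and at 303, 297 and 301 CPM in the labelled knockout, without overlap (1.21-fold lower, adjusted p = 0.00664, edgeR). Without control 3, its highest library, the call was lost (-0.22, adjusted p = 0.0561, edgeR). Slc1a4, the alanine, serine and cysteine carrier ASCT1, was at 52, 39.8 and 36.7 CPM in controls and at 57.3, 50.8 and 56.9 CPM in the labelled knockout (0.35, adjusted p = 0.0189, edgeR). Control 1 was above labelled knockout 2, and the call was lost without control 2 or 3 or labelled knockout 1 or 3 (largest adjusted p = 0.107, edgeR). The excitatory amino acid transporters Slc1a2 (0.659 ± 0.2 and 0.965 ± 0.498 CPM) and Slc1a7 (1.14 ± 0.48 and 1.32 ± 0.246 CPM) did not pass, and Slc1a1 and Slc1a3 had at most 9 counts in any library, too few to be tested.

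In SLC36, Slc36a4, a carrier of proline and tryptophan, was at 29.1, 29.9 and 24.2 CPM in controls and at 38.7, 41.3 and 37.6 CPM in the labelled knockout (1.41-fold higher, adjusted p = 0.000775, edgeR). Slc36a1, the lysosomal proton-coupled carrier PAT1, overlapped between groups at 16.7 ± 1.68 and 19.9 ± 3.7 CPM (0.26, adjusted p = 0.132, edgeR), and passed without labelled knockout 1 (0.40, adjusted p = 0.0243, edgeR). Slc36a3, which lies close to Slc36a1 with 1 protein-coding gene between them, was at 1.72 ± 0.105 and 1.01 ± 0.0913 CPM (-0.77, adjusted p = 0.0799, edgeR).

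No SLC6 member rose with all libraries, and those that fell carry osmolytes and creatine. Slc6a8, the creatine transporter, was at 282, 259 and 286 CPM in controls and at 209, 214 and 210 CPM in the labelled knockout, without overlap (1.31-fold lower, adjusted p = 0.000327, edgeR). Slc6a6, the taurine transporter, was at 132, 117 and 115 CPM in controls and at 97.7, 115 and 98.1 CPM in the labelled knockout (-0.23, adjusted p = 0.0337, edgeR). The Slc6a6 groups nearly touch, and its call was lost without any single control or without labelled knockout 1 or 3 (largest adjusted p = 0.195, edgeR), which leaves Slc6a8 as the family's called decrease. The betaine and GABA transporter Slc6a12 (39.8 ± 2.25 and 34.4 ± 1.77 CPM, adjusted p = 0.0762, edgeR) and the vesicular neutral amino acid carrier Slc6a17 (148 ± 10.4 and 134 ± 11.9 CPM, adjusted p = 0.161, edgeR) did not pass, the latter passing without labelled knockout 2 (-0.21, adjusted p = 0.0422, edgeR). Slc6a20b was at 0.92 ± 0.737 and 1.36 ± 0.513 CPM (adjusted p = 0.306, edgeR), and without control 3, its highest control, it passed as higher (1.44, adjusted p = 0.0386, edgeR); 21.1% of its exon bases lie opposite Sacm1l, which rose (0.34). The other 6 SLC6 members, like Slc7a9, Slc7a13, Slc38a3 and Slc38a8, were not tested, and no untested member had more than 12 counts in a library.

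**Figure D3:**
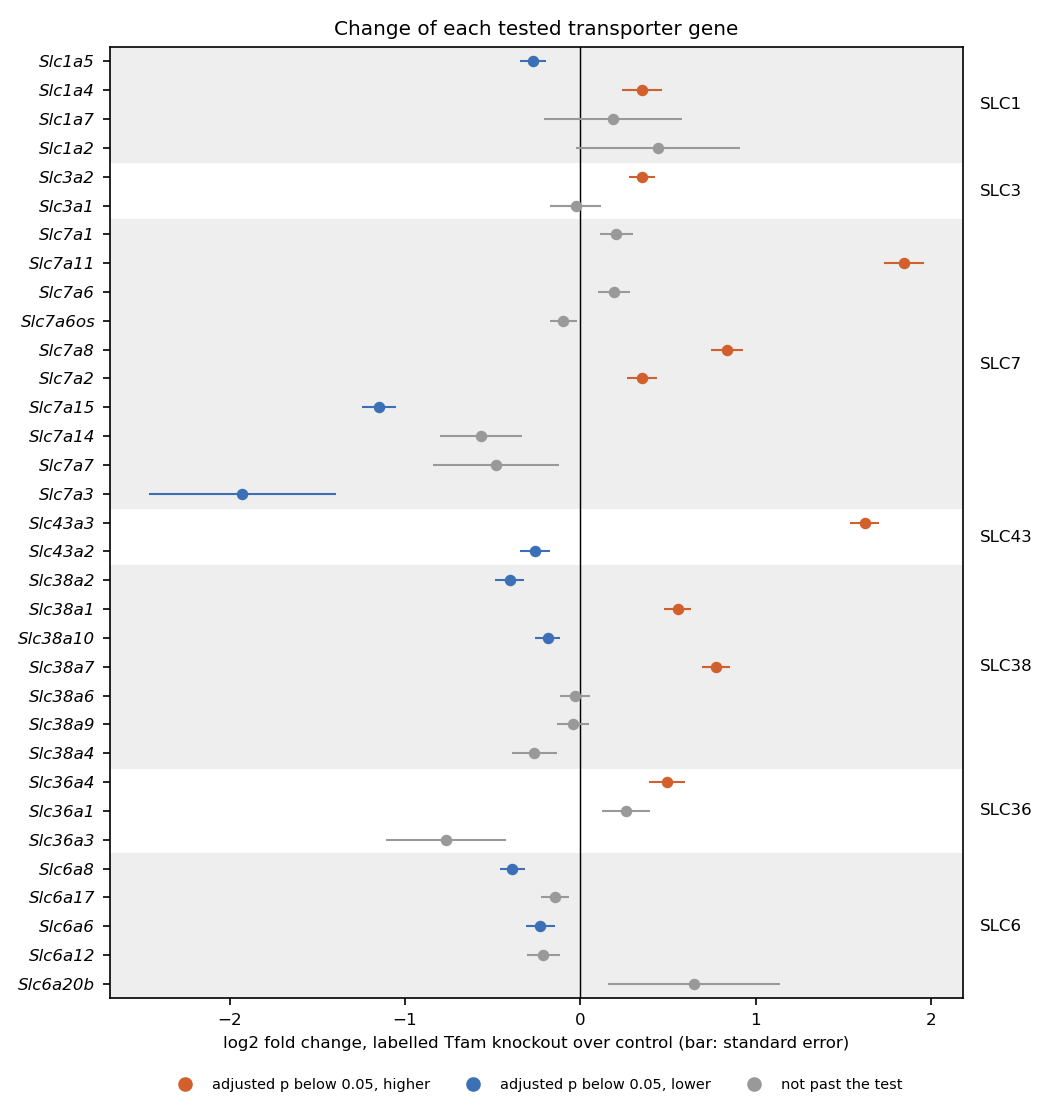
Log2 fold change of labelled knockout over control (bar: SE) for the 33 tested members, grouped by family, with genes that rose in orange, genes that fell in blue and the rest in grey. Increases and decreases stand side by side in SLC1, SLC7, SLC38 and SLC43, while the SLC6 decreases are small.

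By level per 1000 bases, 4 transporters led in controls. Slc38a2 (133 ± 5.47) and Slc1a5 (131 ± 7.09) did not differ beyond their spread, followed by Slc3a2 (93.7 ± 3.11) and Slc6a8 (69.6 ± 3.65). In the labelled knockout Slc3a2 (120 ± 7.11) and Slc43a3 (120 ± 5.62) did not differ beyond their spread, with Slc1a5 (109 ± 1.05) and Slc38a2 (101 ± 8.62) next. With the union of annotated exons as the length, the same genes led in each group, in another order. Summed by substrate class, carriers of taurine, creatine, betaine and GABA went from 104 ± 3.48 to 83.1 ± 1.59 CPM per 1000 bases, and the system A and N carriers from 162 ± 5.58 to 140 ± 10.8. The ASCT exchangers went from 142 ± 6.38 to 123 ± 1.95, and the large neutral carriers Slc7a8 and Slc43a2 from 17.9 ± 1.29 to 24.3 ± 1.61. That class leaves out Slc7a15, listed as without a settled substrate, which went from 24.6 ± 0.942 to 11.1 ± 1.07. With Slc7a15 added, the large neutral sum would be lower in the labelled knockout. The cationic carriers went from 57.6 ± 5.09 to 66.4 ± 6.32, and the cystine exchanger from 6.45 ± 1.31 to 23.4 ± 2.23. The SLC38 members known or thought to act inside the cell went from 85.9 ± 2.52 to 96.7 ± 1.68, and the SLC36 members from 9.33 ± 0.169 to 10.9 ± 0.933. The SLC6 carriers of glycine, proline and other neutral amino acids went from 23.7 ± 1.70 to 21.6 ± 1.98. The groups overlapped for the cationic and for this last class and not for the others named here. These sums are descriptions without a test, and single genes weigh heavily in some. Slc6a8 went from 69.6 ± 3.65 to 53.2 ± 0.667. Slc38a7 went from 22.0 ± 2.26 to 37.7 ± 0.601, while Slc38a10 went from 35.2 ± 1.98 to 31.0 ± 0.407. Slc36a4 went from 4.24 ± 0.470 to 5.99 ± 0.292, while Slc36a3 went from 1.93 ± 0.118 to 1.13 ± 0.102.

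Transporters known as ATF4 targets, 8 of them tested, did not move together. Slc7a11, Slc3a2, Slc1a4 and Slc36a4 rose, Slc38a2, Slc1a5 and Slc7a3 fell and Slc7a1 missed the threshold. The median over the list was 0.28 (log2), and 87.5% of it was called, against 44.2% of all genes. The calls of Slc1a4 and Slc1a5 are among those lost when single libraries were left out, as given above. In the starvation response list 7 of 15 tested genes rose, 3 fell and 5 did not pass (median 0.18), with 66.7% called against 44.2% of all genes. Atf4 itself was at 612, 599 and 563 CPM in controls and at 856, 692 and 793 CPM in the labelled knockout (1.32-fold, adjusted p = 0.00137, edgeR). The stress factor Ddit3, or CHOP, rose 2.79-fold, the pseudokinase Trib3 2.44-fold and the asparagine synthetase Asns 1.60-fold, with Cebpb (0.61), Nupr1 (0.56) and Cebpg (0.48). Cebpb was at 68.5, 155 and 165 CPM in controls 1 to 3 and at 200, 215 and 170 CPM in labelled knockout 1 to 3. Control 1 thus lay far below the other controls, and over the alternatives the log2 fold change of Cebpb ran from 0.305 to 0.828. The call was lost for Cebpb without labelled knockout 1 or 2 (largest adjusted p = 0.0645, edgeR) and with DESeq2. The 3 that fell were the mTORC1 inhibitor Ddit4 (-1.08), Atf5 (-0.46) and the amino acid sensing kinase Eif2ak4, or GCN2 (-0.36).

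In the list for cystine and glutathione use 6 of 11 tested genes rose, 1 fell and 4 did not pass (median 0.18), where 21.3% of all genes rose and 22.9% fell. With control 2, control 3 or labelled knockout 2 left out, 4 rose. The 6 were the thioredoxin reductase Txnrd1 (2.22-fold, 152 ± 12.2 to 338 ± 19 CPM), the sulfiredoxin Srxn1 (0.98), the glutamate-cysteine ligase modifier Gclm (0.97), the glutathione synthetase Gss (0.95), the glutathione reductase Gsr (0.63) and the transcription factor Nfe2l2, or NRF2 (0.18). The catalytic ligase subunit Gclc was at 70.4 ± 3 and 61.7 ± 3.87 CPM (adjusted p = 0.0627, edgeR), and the haem oxygenase Hmox1 fell from 659 ± 75.8 to 250 ± 20.8 CPM (adjusted p = 3.51e-09, edgeR). Without labelled knockout 2, 2 genes of the list fell. Calls were lost for Gss without control 2 or 3 or labelled knockout 1 or 2 (largest adjusted p = 0.118, edgeR) and for Nfe2l2 without any single control or without labelled knockout 2 or 3 (largest adjusted p = 0.135, edgeR).

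Amino acid transporters outside the families held 3 that rose and 4 that fell of 18 tested, a share of 38.9% against 44.2% of all genes, with a median of 0.04. Slc15a3, a lysosomal histidine and peptide carrier, rose from 158, 152 and 156 CPM to 410, 427 and 420 CPM (2.70-fold, adjusted p = 7.79e-11, edgeR). Ctns, the lysosomal cystine exporter cystinosin, fell from 55.7 ± 1.06 to 30.5 ± 1.91 CPM (adjusted p = 6.12e-07, edgeR). The aromatic amino acid carrier Slc16a10 (0.48) and the mitochondrial glutamate carrier Slc25a22 (0.30) rose, and the lysosomal cysteine importer Mfsd12 (-0.35), the sideroflexin Sfxn3 (-0.31) and the aspartate-glutamate carrier Slc25a13 (-0.23) fell. Calls were lost for Slc25a22 without control 2 or labelled knockout 1 or 2 (largest adjusted p = 0.162, edgeR) and for Slc25a13 without control 1 or 3 or labelled knockout 2 or 3 (largest adjusted p = 0.17, edgeR).

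In the list for amino acid sensing to mTORC1, 10 of 31 tested genes fell and 3 rose (median -0.08). The share called, 41.9%, was below that of all genes (44.2%), and with library totals 6 fell and 6 rose. The largest changes among these were in the Rag GTPase Rraga (-0.58), the GATOR1 subunit Nprl2 (-0.57), the arginine sensor paralog Castor2 (-0.57), the Ragulator subunit Lamtor1 (-0.56) and, upward, the mTOR partner Mlst8 (0.63). Wdr59 (0.35) and Rheb (0.20) rose too, the call for Rheb being lost without control 3 or labelled knockout 1 or 3 (largest adjusted p = 0.129, edgeR), and 5 genes rose without labelled knockout 1. The leucine sensors Sesn1 and Sesn2 and Mtor itself did not pass, nor did Castor1 (11.5 ± 0.661 and 11.6 ± 0.769 CPM, adjusted p = 0.99, edgeR). Of 6 tested genes for the trafficking and degradation of transporters 5 were called, or 83.3% against 44.2% of all genes: Sgk3 (0.36) and the ubiquitin ligase Nedd4l (0.21) rose, while the arrestin Arrdc3 (-1.85), the chaperone Bsg (-1.05) and the kinase Sgk1 (-0.62) fell; the call for Nedd4l was lost without control 2 or 3 or labelled knockout 2 or 3 (largest adjusted p = 0.11, edgeR), and 1 gene rose without control 3 or labelled knockout 2. Nupr1, Cebpg, Atf4, Atf5, Eif2ak4, Gsr, Gclc, Nfe2l2, Slc25a13, Slc25a22, Wdr59, Rheb, Mtor, Castor1, Sesn1 and Sesn2 were named after their values were seen.

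**Figure D4:**
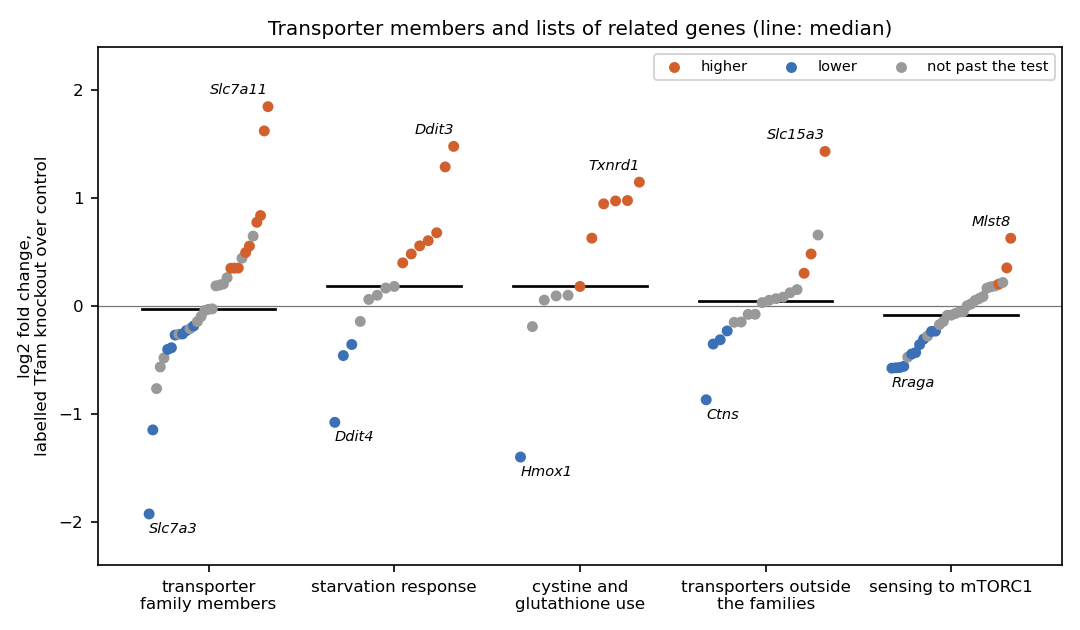
Log2 fold change of every tested gene among the transporter family members and in 4 lists of related genes, sorted within each list, with the list's median as a line. Slc7a11 and Slc7a3 mark the ends among the members, Ddit3 and Ddit4 in the starvation response, Txnrd1 and Hmox1 in cystine and glutathione use, Slc15a3 and Ctns outside the families, and Mlst8 and Rraga in sensing.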

How the data were processed

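RNA of 6 BV2 libraries was measured by RNA-seq. Per the labels' protocols, RNA was extracted with TRIzol and poly(A) libraries were made with an NEBNext Ultra kit, which does not mark strand. The submitters' processing notes name HISAT2 2.1.0, SAMtools 1.9, featureCounts 2.0.0 and GRCm39, and the treatment of multi-mapped reads is not stated in the labels. The authors deposited raw read counts per gene, each row summing to at least 6, and a table of log2 values, which equal log2 of the scaled count plus 8.

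The tests used edgeR 4.0.16 under R 4.3.3 (low-count filter filterByExpr, TMM, glmQLFit, glmQLFTest, Benjamini-Hochberg over 13403 genes; 4469 were left untested). SE is |log2 fold change| divided by the root of F. Levels between genes used the longest transcript of GENCODE M21's basic set; shared transcript stretches were sought with BLAST 2.17.0 (95% identity, at least 100 bases). Alternatives were DESeq2 1.42.0, limma 3.58.1 with voom and on the authors' log2 table (offset removed, pseudocount 1), other scalings and filters, the replicate block, and each library left out. The edgeR step was tested on simulated data.

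Any member could be named, and from each related list up to 5 called genes with the largest change and at least 1 CPM. Members and lists were chosen with earlier results of these data known.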

Additional observations from a re-analysis of the deposited data

How the results depend on the processing

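The 9 members that rose became 8 to 11 when each library was left out in turn, and the 8 that fell became 4 to 8. With library totals 12 rose and 4 fell, and on the authors' log2 values (limma) 11 rose and 4 fell. Both settings raise the all-gene median by 0.10 (log2), and higher genes then made up 61.8% of all calls with library totals, against 48.2%. Of 17 called members 12 kept their call in each of the 14 alternatives that tested them, 8 higher and 4 lower (Slc7a3 was not tested at 5 CPM in 3 libraries); the others were Slc1a4, Slc1a5, Slc43a2, Slc6a6 and Slc38a10. Library totals or the authors' table ended the calls of Slc1a5, Slc43a2, Slc6a6 and Slc38a10 (adjusted p from 0.067 to 0.408, edgeR or limma) and made those of Slc7a1 and Slc7a6. With library totals Slc36a1 passed too, while the decreases of Sfxn3 and Slc25a13 did not. Same-numbered libraries did not deviate together (r of -0.10, -0.11 and 0.04 across genes), and r ran from -0.0478 to 0.152 for differently numbered ones. The labels state no pairing, and with 3 libraries per group these values cannot decide if the numbers pair them. With the replicate block 9 rose and 6 fell, and Slc6a6 (adjusted p = 0.0678, edgeR) and Slc38a10 (0.0867) did not pass. Members that did not pass changed sign near 0, and the cause was not tested. With library totals and with the authors' table, log2 fold changes were 0.0715 and 0.0712 for Slc38a6, 0.0580 and 0.0572 for Slc38a9, 0.0719 and 0.0811 for Slc3a1, and 0.00263 and 0.00337 for Slc7a6os. Leaving out each library in turn, the log2 fold change of Slc1a2 ran from -0.0147 to 0.795, of Slc1a7 from -0.0901 to 0.428, of Slc38a6 from -0.0921 to 0.0519 and of Slc3a1 from -0.0916 to 0.0463. Genes under about 1 CPM are limited by counting error.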
